A study of Arabidopsis thaliana with 48 samples.

Results

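The mitochondrial stress response genes described here were AT2G21640, AT2G41730, AT5G09570, AT1G05060, AT2G04050, AT2G04070, AT5G43450, AT2G32020 and NDB4 (locus AT2G20800). They were taken by name from the table that pairs probe sets with genes, as genes known to rise with mitochondrial or oxidative stress, and they are 9 of the 13350 genes that the table names singly. They were chosen by their lower levels on auxin than on control medium in these same arrays, with no numeric threshold. Levels and differences between auxin and control medium are therefore a description of the 9 genes, and no p-value of a single one is given for them.

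The samples were total RNA from roots of 6-day-old Arabidopsis thaliana seedlings, measured on 48 single-channel Affymetrix arrays with 3 arrays in each of 16 groups. Seedlings grown on a nylon mesh over medium with sucrose, in continuous light, were carried on the mesh either to medium that held the auxin IAA (indole-3-acetic acid) at 1 µM or to control medium. Roots were taken from both media after 0 h (fewer than 5 minutes), 0.5, 1, 2, 4, 8, 12 and 24 h. The labels used here name neither an ecotype nor a genotype, and they do not say whether the 3 arrays of a group came from separate cultures, so p-values measure the spread between these arrays, which may be technical. The study followed the kinetics of transcripts that respond to auxin.

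Plant cells react to a disturbed respiratory chain by changing nuclear transcription, a route called mitochondrial retrograde signalling. In Arabidopsis, NAC transcription factors anchored in the endoplasmic reticulum are released when mitochondria are impaired and switch on a shared set of genes. That set includes alternative oxidase, alternative NAD(P)H dehydrogenases, transporters, glutathione transferases and several small mitochondrial proteins, and many of these transcripts also rise with oxidative stress in general. Alternative dehydrogenases and oxidases carry electrons without pumping protons, so respiration can run on when the main chain is blocked.

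Values are log2 intensities as deposited, so a difference of 1 is a factor of 2, and levels of different genes are not compared because each rests on its own probe set. Array means lay between 7.70 and 7.71. GH3.3, an auxin-induced enzyme that conjugates IAA, stood between 10.6 and 14.1 in the 21 IAA arrays from 0.5 h on, against 6.91 to 10.9 in the 24 control arrays, and LBD29, an auxin-induced factor of lateral root formation, between 10.4 and 12.1 against 6.45 to 7.81. The control array with GH3.3 at 10.9 was replicate 1 of 1 h. Over all other probe sets, 4 arrays stood farthest from their group means, namely IAA 1 h replicate 3, control 0 h replicate 3, IAA 24 h replicate 2 and IAA 2 h replicate 3 (root mean square deviation 0.286 to 0.303, against 0.115 to 0.264 in the other 44). GH3.3 in the 3 IAA arrays of 24 h ran from 10.6 to 11.9, with replicate 2 at 11.9, all above the 3 IAA arrays of 0 h (7.49 to 7.96). None of 10 root markers could be named on the array, so the tissue label was not checked. The 4 named of 12 photosynthesis markers averaged 6.65 to 7.54 in IAA arrays and 6.76 to 7.79 in control arrays, and their deviations followed those of the 9 genes with an r of -0.073. In bulk roots, fewer cells of a type and less RNA per cell cannot be told apart.

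Each of the 9 genes was measured by 1 probe set, and none of their values in the 24 IAA or the 24 control arrays lay below that array's own lower quartile (6.11 to 6.29). The probe set of AT2G41730 is of a kind in which some probes may match other transcripts. Of the 9 genes, 6 lie on chromosome 2, against 16.3% of the named genes. AT2G04050 and AT2G04070 are near neighbours there, with 5 genes between them in the TAIR10.1 annotation.

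AT2G21640 encodes a small mitochondrial protein whose transcript serves as a marker of oxidative stress in that organelle. At 0 h the IAA arrays read 11.11, 10.89 and 10.84 and the control arrays 11.36, 11.55 and 9.22. After 0.5 h the values were 10.97, 9.84 and 9.77 on IAA and 10.92, 11.04 and 10.90 on control medium, with overlap through 1 IAA array. At 1 h they were 10.18, 9.70 and 8.13 on IAA and 11.55, 10.32 and 10.88 on control medium, the first time at which all 3 IAA arrays lay below all 3 control arrays. The groups met again at 2 h, with 9.01, 9.18 and 7.88 on IAA and 10.88, 10.20 and 9.17 on control medium. From 4 h on they stayed apart. The 4 h values were 7.90, 7.80 and 8.19 on IAA and 11.34, 10.30 and 9.24 on control medium, and the 8 h values 7.21, 7.03 and 6.95 on IAA and 10.99, 10.41 and 9.18 on control medium. The IAA arrays of 8 h lay within a narrow band, while the control arrays spread widely. The means of 7.06 ± 0.14 on IAA and 10.19 ± 0.92 on control medium (SD, n = 3 each) differed by -3.13 ± 0.69 (standard error), or 8.76-fold. That standard error rests on a spread pooled over all 16 groups, so it is the same at each time. At 12 h the levels were 6.84, 6.80 and 6.68 on IAA, against 10.80, 10.98 and 7.86 on control medium. At 24 h they were 6.64, 9.28 and 6.49 on IAA, against 9.97, 10.07 and 10.87 on control medium, and the second IAA array stood far above the other two without reaching the control arrays.

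AT2G41730, a protein-coding locus without a symbol in the annotation, was the farthest below control medium of the 9 genes at each time from 0.5 to 24 h. It began at 12.00, 11.96 and 11.72 on IAA and 12.68, 12.62 and 9.16 on control medium. At 0.5 h the IAA arrays read 10.70, 9.75 and 10.76 and the control arrays 11.79, 11.89 and 10.95, which left no overlap, and the groups were apart at all 7 times from 0.5 to 24 h. The 1 h values were 9.55, 9.08 and 7.52 on IAA and 12.71, 10.04 and 11.73 on control medium, a difference of -2.78 ± 0.83 or 6.86-fold. At 2 h the gene read 8.65, 8.88 and 8.59 on IAA and 11.78, 11.65 and 9.26 on control medium, where the third control array came within 1 log2 unit of the IAA arrays. At 4 h it read 8.41, 8.16 and 8.63 on IAA and 12.18, 11.61 and 11.04 on control medium. The largest difference followed at 8 h, with 7.87, 7.79 and 7.62 on IAA and 12.12, 11.68 and 10.47 on control medium (-3.66 ± 0.83, 12.6-fold). Levels at 12 h were 7.45, 7.79 and 7.39 on IAA and 11.83, 12.23 and 9.24 on control medium. At 24 h they were 7.42, 11.41 and 7.496 on IAA and 11.66, 11.88 and 11.86 on control medium, so the second IAA array had nearly the control level and the other two had the 12 h level.

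**Figure D1:**
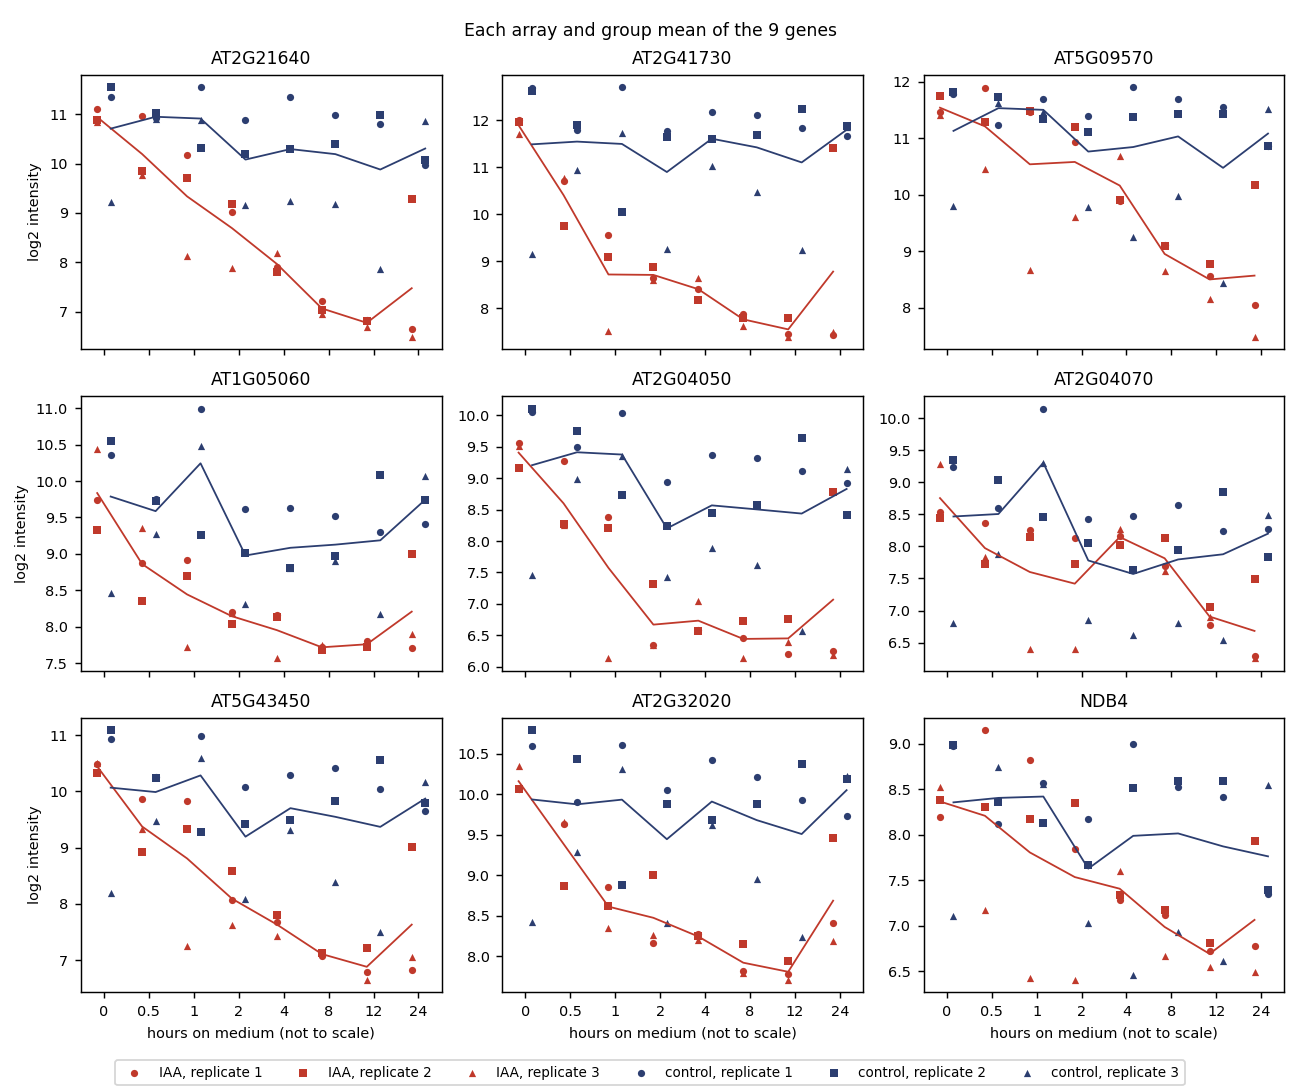
Each panel plots the log2 intensity of 1 gene (vertical axis) against hours on IAA or control medium (horizontal axis, evenly spaced and not to scale), with a point for each array, shaped by replicate number, and a line through the group means. Replicate 2 of IAA 24 h lies above the other IAA arrays of that time in all 9 panels, and in AT2G21640 it read 9.28 against 6.64 and 6.49.

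Of the 9 genes, AT5G09570 and NDB4 also encode proteins of the mitochondrial machinery. AT5G09570 belongs to a family of small proteins with paired cysteines, related to a factor of cytochrome oxidase assembly. Its values at 1 h were 11.47, 11.48 and 8.67 on IAA and 11.70, 11.35 and 11.47 on control medium, so 2 of the 3 IAA arrays were still at the control level. At 2 h they were 10.94, 11.20 and 9.61 on IAA and 11.40, 11.11 and 9.79 on control medium, again with overlap. The 4 h values, 9.89, 9.90 and 10.69 on IAA and 11.91, 11.38 and 9.25 on control medium, overlapped, and the third control array was the lowest of the 6. Separation came at 8 h, with 9.12, 9.09 and 8.65 on IAA and 11.69, 11.43 and 9.97 on control medium, or 8.95 ± 0.26 and 11.03 ± 0.93 (-2.08 ± 0.74, 4.23-fold). At 12 h the arrays read 8.56, 8.78 and 8.16 on IAA and 11.56, 11.44 and 8.43 on control medium, where the third control array lay inside the IAA range. At 24 h they read 8.04, 10.18 and 7.49 on IAA and 10.87, 10.87 and 11.52 on control medium, and the difference of -2.52 ± 0.74 was the largest of the course (5.72-fold).

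NDB4, an alternative NAD(P)H dehydrogenase on the outer face of the inner mitochondrial membrane, was the only one of the 9 genes whose groups overlapped at all 8 times. It read 8.20, 8.38 and 8.52 on IAA and 8.97, 8.98 and 7.11 on control medium at 0 h. At 1 h the arrays read 8.81, 8.18 and 6.42 on IAA and 8.56, 8.13 and 8.56 on control medium, so the third IAA array alone was low. At 8 h they read 7.11, 7.18 and 6.67 on IAA and 8.52, 8.59 and 6.93 on control medium, a difference of -1.03 ± 0.62. The 12 h levels were 6.72, 6.81 and 6.54 on IAA and 8.41, 8.59 and 6.61 on control medium (-1.18 ± 0.62, 2.27-fold, the largest of the course). At both times the first and second control arrays lay more than 1 log2 unit above the IAA arrays and the third control array lay among them. At 24 h the order was less clear, with 6.78, 7.93 and 6.49 on IAA and 7.35, 7.39 and 8.55 on control medium (-0.70 ± 0.62).

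AT2G04050 and AT2G04070 encode transporters of the MATE family, which export small organic compounds from the cell or into the vacuole. They had different courses on IAA. AT2G04050 read 9.56, 9.16 and 9.51 on IAA and 10.06, 10.11 and 7.46 on control medium at 0 h. Its arrays at 1 h read 8.38, 8.21 and 6.13 on IAA and 10.04, 8.74 and 9.36 on control medium, with no overlap. At 2 h they read 6.34, 7.32 and 6.34 on IAA and 8.94, 8.24 and 7.43 on control medium, and at 4 h 6.59, 6.56 and 7.05 on IAA and 9.37, 8.46 and 7.88 on control medium. The IAA arrays stayed in this range at 8 h (6.46, 6.73 and 6.14 on IAA, 9.32, 8.57 and 7.62 on control medium), where the difference was -2.06 ± 0.68 or 4.18-fold. At 12 h they read 6.21, 6.75 and 6.39 on IAA and 9.11, 9.64 and 6.57 on control medium, with the third control array inside the IAA range. At 24 h they read 6.25, 8.78 and 6.18 on IAA and 8.93, 8.42 and 9.14 on control medium, with the second IAA array inside the control range.

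AT2G04070 was not below control medium in the middle of the course. At 1 h all 3 IAA arrays lay below the control arrays, with 8.25, 8.15 and 6.40 on IAA and 10.15, 8.46 and 9.31 on control medium (-1.70 ± 0.61). At 2 h the groups overlapped, with 8.13, 7.72 and 6.41 on IAA and 8.42, 8.06 and 6.86 on control medium. The 4 h values were 8.15, 8.02 and 8.26 on IAA and 8.47, 7.63 and 6.61 on control medium, so the 3 IAA arrays were close together and lay in the upper part of the control range (0.57 ± 0.61). At 8 h the gene read 7.70, 8.13 and 7.62 on IAA and 8.65, 7.94 and 6.80 on control medium, with a difference of 0.02 ± 0.61. By 24 h the groups were apart again at 6.29, 7.495 and 6.26 on IAA and 8.27, 7.83 and 8.49 on control medium (-1.52 ± 0.61, 2.86-fold). The other 8 genes had negative differences at 4 h and at 8 h, and the 4 h difference of AT2G04070 was within 1 standard error of 0. Its 8 h difference ran from -0.48 to 0.50 with 1 array or 1 replicate number left out.

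AT5G43450 and AT2G32020 encode members of enzyme families, a 2-oxoglutarate and iron dependent oxygenase and an acyltransferase of the GNAT type. AT5G43450 read 9.82, 9.34 and 7.26 on IAA and 10.98, 9.27 and 10.60 on control medium at 1 h, where the groups still overlapped. At 4 h it read 7.67, 7.81 and 7.42 on IAA and 10.29, 9.49 and 9.32 on control medium. At 8 h the IAA arrays agreed closely at 7.08, 7.12 and 7.12, while the control arrays read 10.41, 9.84 and 8.39, and the means of 7.11 ± 0.03 and 9.55 ± 1.04 differed 5.42-fold. At 12 h the values were 6.79, 7.21 and 6.65 on IAA and 10.05, 10.56 and 7.504 on control medium (-2.49 ± 0.69, 5.61-fold). The groups stayed apart at 24 h, with 6.82, 9.01 and 7.06 on IAA and 9.65, 9.80 and 10.16 on control medium.

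AT2G32020 was apart at 1 h, with 8.86, 8.63 and 8.35 on IAA and 10.61, 8.88 and 10.31 on control medium, although the closest arrays were nearly equal. At 4 h the IAA arrays read 8.27, 8.25 and 8.20 and the control arrays 10.43, 9.69 and 9.62 (-1.67 ± 0.50). The 8 h arrays read 7.82, 8.15 and 7.79 on IAA and 10.22, 9.88 and 8.95 on control medium, a difference of -1.76 ± 0.50 or 3.39-fold. At 12 h they read 7.78, 7.93 and 7.71 on IAA and 9.93, 10.37 and 8.23 on control medium, and at 24 h 8.41, 9.46 and 8.19 on IAA and 9.73, 10.19 and 10.23 on control medium. The second IAA array was again the highest of its group at 24 h, and all 3 lay below control medium.

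AT1G05060, a protein-coding locus without a symbol, had early and moderate differences. At 0.5 h its values were 8.88, 8.35 and 9.36 on IAA and 9.76, 9.73 and 9.27 on control medium, with overlap through 1 IAA array, and the groups were apart at each time from 1 h on. At 1 h they were 8.91, 8.69 and 7.73 on IAA and 10.99, 9.25 and 10.48 on control medium, its largest difference (-1.80 ± 0.46, 3.47-fold). At 4 h the gene read 8.16, 8.13 and 7.57 on IAA and 9.63, 8.81 and 8.81 on control medium. At 8 h the 3 IAA arrays were nearly equal, with 7.72, 7.69 and 7.75 on IAA and 9.51, 8.97 and 8.90 on control medium (-1.41 ± 0.46). The same low IAA level was seen at 12 h, with 7.80, 7.72 and 7.76 on IAA and 9.30, 10.08 and 8.17 on control medium. At 24 h the values were 7.71, 9.01 and 7.91 on IAA and 9.41, 9.74 and 10.07 on control medium.

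At 0 h none of the 9 differences was negative, and they ran from 0.01 to 0.41. Control 0 h replicate 3 was the lowest of its group in all 9 genes (mean deviation -1.61), so the sign at 0 h leans on that array and is not settled. In AT2G41730 it read 9.16, while the other control arrays, at 12.68 and 12.62, lay above all 3 IAA arrays. All 9 differences were negative at 0.5, 1, 2, 12 and 24 h, and 8 of 9 at 4 and 8 h. The median difference was -0.61 at 0.5 h, -1.58 at 1 h, -0.97 at 2 h, -1.67 at 4 h, -2.06 at 8 h, -1.98 at 12 h and -1.76 at 24 h, while the median of all 22746 probe sets stayed between -0.02 and 0.01. With 1 array or 1 replicate number left out the medians of 8, 12 and 24 h overlapped, so their order is not settled. By group means, the largest difference came at 24 h for AT5G09570 and at 1 h for AT1G05060 (-1.80) and AT2G04070 (-1.70). These times are not settled either. With such leaving out, AT5G09570 ran from -3.43 to -1.76 at 24 h and from -2.61 to -1.75 at 8 h. The 24 h differences ran from -1.93 to -1.22 for AT1G05060 and from -2.11 to -1.16 for AT2G04070. Control 1 h replicate 1 was the highest of its group in all 9 genes. Fold differences at 8 h ran up to 12.6 for AT2G41730, 8.76 for AT2G21640 and 5.42 for AT5G43450.

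**Figure D2:**
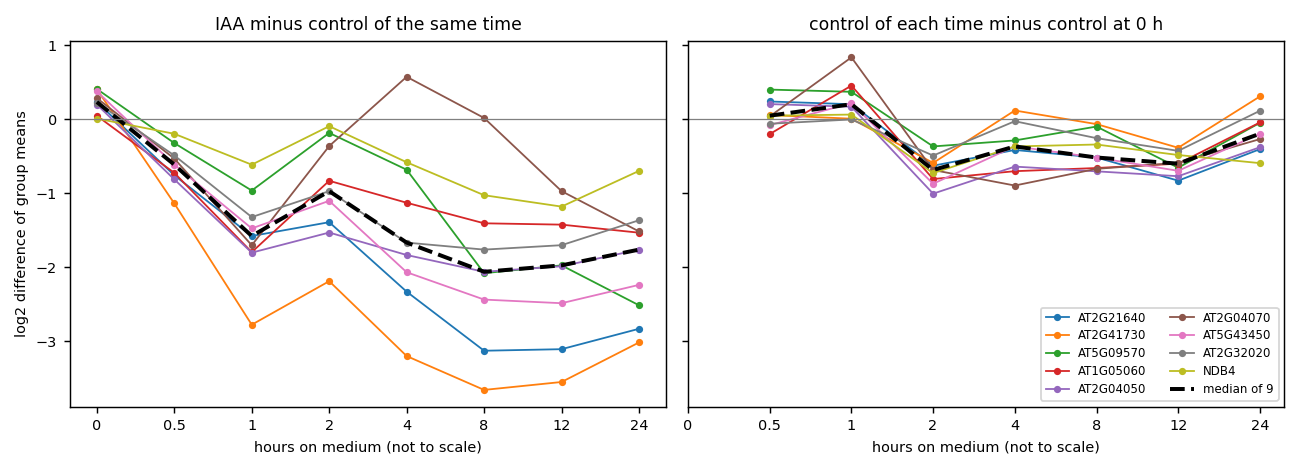
The left panel plots the log2 difference between IAA and control medium of the same time and the right panel the log2 difference between control medium at each later time and at 0 h (vertical axes), against hours on the medium (evenly spaced, not to scale), with a line for each gene and a dashed line for the median of the 9. The dashed line reaches -2.06 at 8 h in the left panel and goes no lower than -0.69 in the right panel.

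The counts that follow are a description beside all probe sets, because these differences chose the genes. The groups did not overlap, with IAA lower, for 0 of the 9 at 0 h, 1 at 0.5 h, 6 at 1 h, 3 at 2 h, 6 at 4 h, 7 at 8 h, 5 at 12 h and 7 at 24 h. The same held for 1.44% of all probe sets at 0 h, 6.86% at 0.5 h, 5.4% at 1 h, 9.48% at 2 h, 17.2% at 4 h, 16.8% at 8 h, 15.3% at 12 h and 10.6% at 24 h. An adjusted p under 0.05 with a lower level on IAA (limma, Benjamini-Hochberg over all probe sets) was met by 0 of the 9 at 0.5 h, 1 at 1 h, 0 at 2 h, 4 at 4 h, 6 at 8 h, 5 at 12 h and 5 at 24 h. The share of all probe sets was 0.251% at 0.5 h, 0.607% at 1 h, 3.76% at 2 h, 7.1% at 4 h, 6.43% at 8 h, 4.93% at 12 h and 3.21% at 24 h. At an unadjusted p under 0.05 in either direction, limma counted 0 of the 9 at 0.5 h, 7 at 1 h, 2 at 2 h, 6 at 4 h, 7 at 8 h, 7 at 12 h and 8 at 24 h. The share of all probe sets was 8.73% at 0.5 h, 10.1% at 1 h, 20.6% at 2 h, 27.6% at 4 h, 27.2% at 8 h, 23.3% at 12 h and 18.3% at 24 h. Over the times from 0.5 to 24 h together, 7 of the 9 passed the moderated F test and 28.3% of all probe sets did, with AT2G04070 and NDB4 as the exceptions.

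These counts rested on few arrays. At 1 h the count was 0 without IAA replicate 3, control replicate 1 or control replicate 3 of that time, and 2 without IAA 24 h replicate 2, control 1 h replicate 2 or control 0 h replicate 3. At 2 h it was 1 without IAA 24 h replicate 2 or control 2 h replicate 3. At 4 h the count was 1 without control replicate 1, and 2 without IAA replicate 2 or IAA replicate 3 of that time. At 8 h it was 2 without control replicate 1 and 3 without control replicate 2. At 12 h it was 2 without control replicate 1, control replicate 2 or IAA replicate 3, and 3 without IAA replicate 1. At 24 h it was 0 without IAA replicate 1 or IAA replicate 3, 1 without control replicate 2 or control replicate 3, and 3 without control replicate 1. With those 4 arrays left out that stood farthest over all other probe sets, a setting chosen after the data were seen, it was 0 at 1 h, 1 at 2 h, 6 at 4 h, 7 at 8 h, 7 at 12 h and 8 at 24 h. Without replicate number 1, 2 of the 9 passed the F test, and without replicate number 3 all 9 did. The share of all probe sets with the same arrays left out was not set beside these counts. They therefore do not tell a change in the 9 genes from a change in calls over all probe sets.

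On control medium alone, none of the 9 genes passed a test. This contrast was not the one that chose the genes, but it shares the control arrays and is no independent support. Their median difference from 0 h was 0.05 at 0.5 h, 0.20 at 1 h, -0.69 at 2 h, -0.37 at 4 h, -0.52 at 8 h, -0.60 at 12 h and -0.20 at 24 h. AT2G04070 had the largest positive difference (0.84 at 1 h) and AT2G04050 the largest negative one (-1.01 at 2 h). In the F test over the 7 later times none of the 9 passed (limma adjusted p = 1 for each, unadjusted p from 0.102 to 0.973). No gene had a later group clear of the 0 h group, but the share of all probe sets was not set beside this. Control 0 h replicate 3 was the lowest of its group in all 9 genes and widened the 0 h range downward. The overlap with 0 h therefore cannot tell whether a later group was lower. Across all probe sets 0 of 22746 passed after adjustment (0%), and 2.11% had an unadjusted F-test p under 0.05, against 0 of the 9 genes.

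Control 0 h replicate 3, at which each gene was far below replicates 1 and 2, bears on this comparison. AT2G41730 read 9.16 there, against 12.7 and 12.6 in the other two. Without that array the median difference from 0 h was negative at all 7 later times, with -0.79 at 0.5 h, -0.56 at 1 h, -1.47 at 2 h, -1.16 at 4 h, -1.26 at 8 h, -1.42 at 12 h and -1.10 at 24 h, and still 0 of the 9 passed the F test. Without control replicate 3 of the later time it was instead 0.11 at 4 h, 0.06 at 8 h and 0.18 at 12 h, and without control 0 h replicate 2 it was 0.48 at 0.5 h, 0.63 at 1 h and 0.30 at 24 h. The direction of the control course was therefore not settled, apart from 2 h, where the median stayed negative with any single array left out. The standard errors of 0.46 to 0.83 for single genes set the size of change that 3 arrays a group could show.

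The range over the 24 control arrays was wide. AT2G21640 ran from 7.86 through a median of 10.8 to 11.6, AT2G41730 from 9.16 through 11.8 to 12.7, and AT5G09570 from 8.43 through 11.4 to 11.9. AT1G05060 ran from 8.17 through 9.46 to 10.99, AT5G43450 from 7.504 through 9.94 to 11.1, and AT2G32020 from 8.23 through 9.92 to 10.8. The transporter AT2G04050 ran from 6.57 through 8.96 to 10.1 and AT2G04070 from 6.54 through 8.35 to 10.1, while NDB4 ran from 6.46 through 8.38 to 8.995. In 7 of these 9 genes the lowest control value came from replicate 3 of 12 h, and in the other two, AT2G41730 and NDB4, from replicate 3 of 0 h and of 4 h.

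Set against IAA at 0 h instead of control medium, the genes showed how the IAA arrays moved over time. This comparison shares its later IAA arrays with the one above, so the 2 are not independent. The median difference was -0.78 at 0.5 h, -1.55 at 1 h, -1.69 at 2 h, -1.92 at 4 h, -2.59 at 8 h, -2.96 at 12 h and -2.34 at 24 h. All 3 later arrays lay below all 3 arrays of 0 h for 4 of the 9 genes at 0.5 h, 7 at 1 h, 8 at 2 h and 9 from 4 h on. Of all probe sets the same held for 8.82% at 0.5 h, 8.07% at 1 h, 10.6% at 2 h, 17.4% at 4 h, 15.1% at 8 h, 16.6% at 12 h and 13.0% at 24 h. An adjusted p under 0.05 with a lower level (limma, a count that shares the choice of the genes through those arrays) was met by 0 at 0.5 h, 1 at 1 h, 6 at 2 h, 6 at 4 h, 7 at 8 h, 8 at 12 h and 7 at 24 h. Of all probe sets it was met by 0.831% at 0.5 h, 2% at 1 h, 4.37% at 2 h, 7.28% at 4 h, 6.79% at 8 h, 5.42% at 12 h and 4.69% at 24 h. At 0.5 h, an unadjusted p under 0.05 was met by 1 of the 9 (limma), against 12.5% of all probe sets.

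The genes differed in how soon they approached their 12 h level on IAA. At 1 h AT2G41730 had covered 73.1% of its log2 difference between 12 h and 0 h (61.2 to 83.4% with each replicate number left out in turn), AT1G05060 67.0% (41.1 to 78.1%) and AT2G32020 65.8% (60.0 to 72.0%). AT2G21640 had covered 38.5% (25.3 to 47.2%) and AT5G09570 33.0% (4.51 to 48.4%). The range of AT2G41730 lay clear of those of both, and so did that of AT2G32020. NDB4 had covered 33.4% with a range from -13.7 to 64.8%, so its place in the order at 1 h was not settled. AT2G04050 had covered 92.6% at 2 h (87.7 to 98.6%), when AT2G21640 was at 54.0% (45.5 to 59.9%). The 12 h mean of AT2G04050 on IAA, 6.45, lay close to the lower quartiles of the arrays (6.11 to 6.29). Whether this low end of the scale shaped its course was not tested. AT5G09570 was at 45.3% (37.3 to 58.1%) at 4 h and 85.2% at 8 h. AT2G04070 was at 32.9% (25.4 to 38.3%) at 4 h and 50.8% (36.4 to 60.2%) at 8 h, when the other 8 genes had covered 82.3% or more. At 24 h 7 genes were at 62.7 to 83.2%, AT5G09570 at 97.8% and AT2G04070 at 112%. With 1 replicate number left out, the highest share of these 7 genes ran from 77.4 to 104%.

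**Figure D3:**
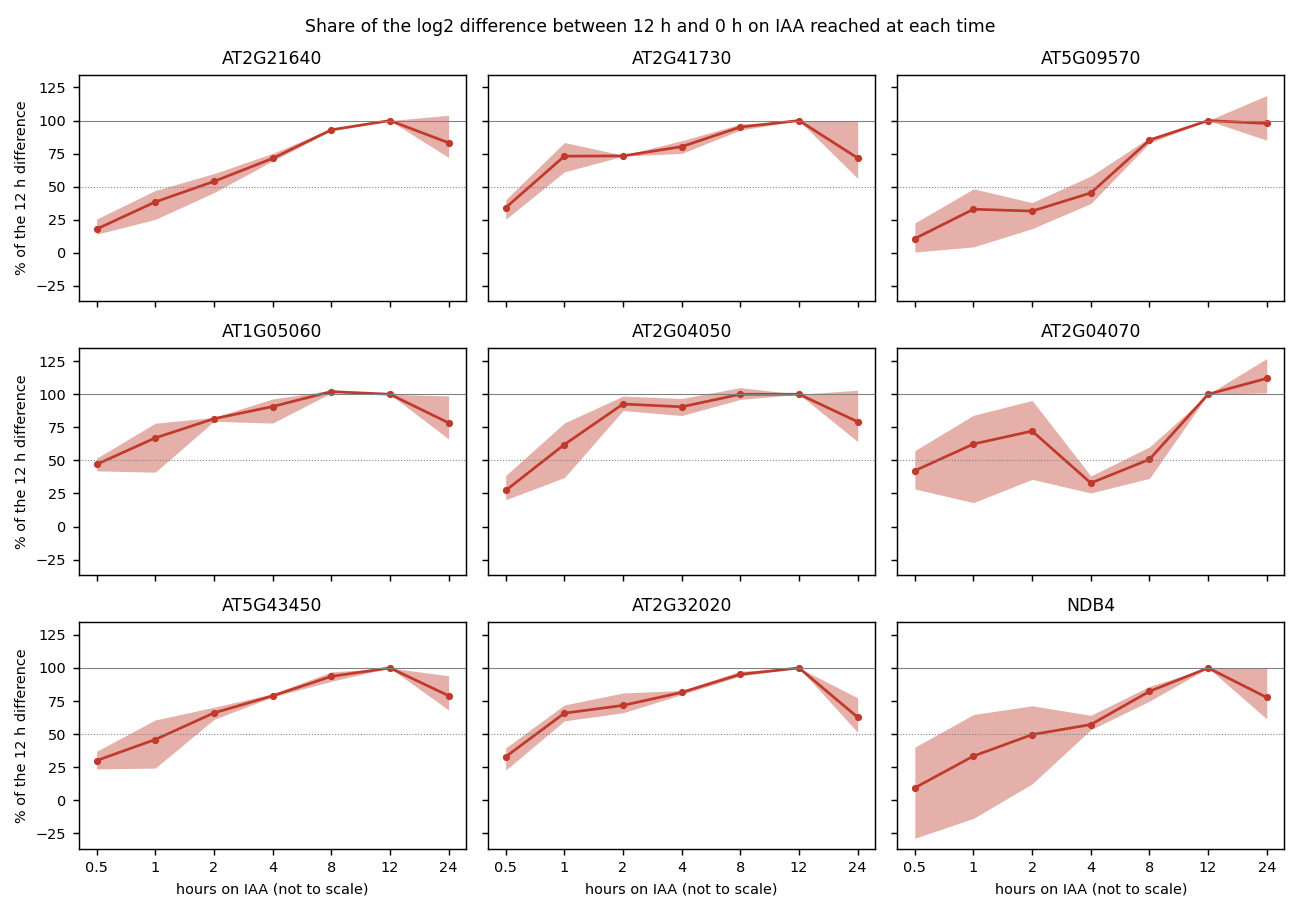
Each panel plots, for 1 gene, the share of its log2 difference between 12 h and 0 h on IAA that was reached at each time (vertical axis, percent) against hours on IAA (evenly spaced, not to scale), with the line for all 3 arrays and the band for the lowest and highest value when each replicate number is left out. AT2G41730 passes 50% by 1 h (73.1%), AT5G09570 only after 4 h (45.3% at 4 h, 85.2% at 8 h), and AT2G04070 turns back to 32.9% at 4 h.

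The 9 genes also moved together between replicates of the same group. The spread of a gene within groups, pooled over all 16, was 0.59 for AT1G05060 to 1.08 for AT2G41730 (log2 SD), which placed the 9 genes at the 97.9th to 99.9th percentile of all probe sets, whose median was 0.18. Over the 48 arrays, the deviations from the group means correlated with a Pearson r between 0.589 (AT1G05060 and NDB4) and 0.955 (AT2G04050 with AT2G21640 and with AT5G43450) for the 36 pairs of genes, with a median of 0.864. The arrays share their scaling and replicate numbers, so this is a description. Each gene's deviations followed the mean of the other 8 with an r from 0.829 (NDB4) to 0.972 (AT5G43450).

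All 9 genes lay on the same side of their group means in 23 of the 48 arrays, 7 of them on IAA and 16 on control medium. On IAA, the mean deviation of the 9 was 1.38 in replicate 2 of 24 h and -1.20 in replicate 3 of 1 h. On control medium it was lowest in replicate 3 of 12 h (-1.62) and of 0 h (-1.61), and highest in replicate 2 of 12 h (1.00). Replicate 3 was below the group mean in 6 of 8 groups on IAA and in 6 of 8 on control medium. The 4 arrays farthest over all other probe sets include IAA 24 h replicate 2, IAA 1 h replicate 3 and control 0 h replicate 3, and control 12 h replicate 3 came next but one at 0.257. The part of this array distance in the shared deviations was not tested.

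**Figure D4:**
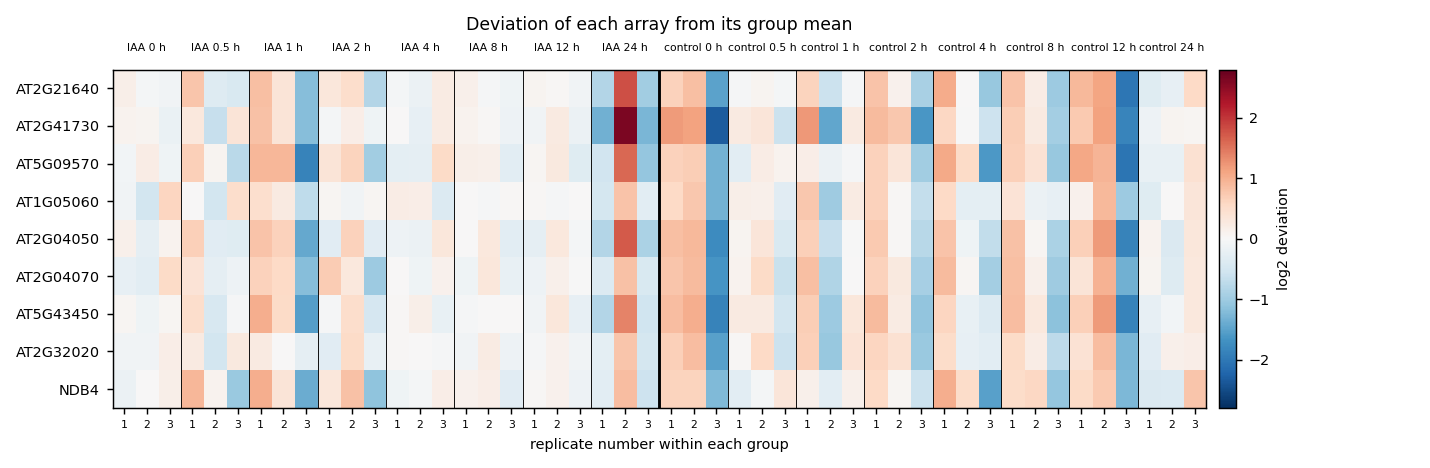
The heat map shows, for each gene (rows) and each array (columns, IAA groups left and control groups right, replicates 1 to 3 within each), the log2 deviation from the group mean, with red above and blue below. Whole columns share 1 colour, such as replicate 2 of IAA 24 h (mean deviation 1.38) and replicate 3 of control 12 h (-1.62).

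The spread was unequal between the media and changed with time. The SD of the 3 IAA arrays was below that of the 3 control arrays for 9 of the 9 genes at 0 h, 2 at 0.5 h, 3 at 1 h, 7 at 2 h, 9 at 4 h, 9 at 8 h, 9 at 12 h and 0 at 24 h. Of all probe sets the same held for 52.5% at 0 h, 46.7% at 0.5 h, 36.6% at 1 h, 45.6% at 2 h, 61.9% at 4 h, 54.2% at 8 h, 70% at 12 h and 52.2% at 24 h. At 12 h the median SD of the 9 genes was 0.14 on IAA and 1.62 on control medium, and the IAA SD was under 0.25 times the control SD for all 9, against 15.7% of all probe sets. At 8 h it was 0.20 on IAA and 0.92 on control medium. Already at 0 h it was 0.16 on IAA and 1.32 on control medium, and control replicate 3 was low in each gene. At 24 h the order was turned, with 1.20 on IAA and 0.34 on control medium, and IAA replicate 2 was high in each gene.

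Among the other 13341 named genes, 48 had deviations that followed the mean of the 9 with an r of 0.8 or more, and the median r was -0.01. The 6 most alike were UGT73B5 (0.931), AT5G51440 (0.925), AT2G35480 (0.923), AT1G24095 (0.919), GSTU22 (0.912) and AT1G33110 (0.894). UGT73B5 is a glycosyltransferase of stress responses, AT5G51440 a mitochondrial small heat shock protein and GSTU22 a tau class glutathione transferase. UGT73B5 averaged 7.43 ± 0.04 on IAA and 8.46 ± 0.80 on control medium at 12 h (SD, n = 3 each), and GSTU22 averaged 10.02 ± 0.05 on IAA and 11.2 ± 0.81 on control medium. AT1G33110 averaged 8.17 ± 0.08 on IAA and 8.90 ± 0.74 on control medium at 12 h, while at 24 h its means on the same media were 9.10 ± 0.92 and 8.93 ± 0.06.

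By the pattern over the 16 group means, 63 genes had an r of 0.9 or more with the mean of the 9. The 6 most alike were AT5G56350 (0.980), AT1G24095 (0.969), AT1G73650 (0.963), AT5G43440 (0.963), AT4G39235 (0.957) and AT2G21960 (0.953). Only AT1G24095 was among the first 6 by both measures. AT5G56350, which encodes a pyruvate kinase, averaged 10.8 ± 0.08 on IAA and 11.4 ± 0.33 on control medium at 12 h. AT5G43440, the next protein-coding gene to AT5G43450 on chromosome 5, read 5.56 ± 0.19 on IAA and 6.55 ± 0.29 on control medium at 12 h, where its IAA mean was below the lower quartile of every array. AT2G21960 had a deviation r of only 0.073, so its likeness was in the group means alone.

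Other genes of the pathway were taken from lists chosen with earlier results of these data known. Of 19 further genes of the mitochondrial dysfunction response, 4 could be named on the array, namely AT5G51440, NDB2, NDB3 and GSTU25, and alternative oxidase was not among them. Of these, 3 of 4 passed the F test of IAA against control, against 28.3% of all probe sets. The number that fell was 1 at 4 h, 3 at 8 h, 3 at 12 h and 2 at 24 h, against 7.1%, 6.43%, 4.93% and 3.21% of all probe sets at these times, with none that rose. The tests below are limma's at the time of each gene's largest difference, adjusted over all probe sets. That adjustment is made within 1 time and does not cover the choice of the time, so these p-values are a description. GSTU25, a glutathione transferase, averaged 9.53 ± 0.12 on IAA and 12.2 ± 0.83 on control medium at 12 h (-2.71 ± 0.36, adjusted p = 6.12e-07). NDB2, an alternative dehydrogenase of the same family as NDB4, averaged 9.47 ± 0.03 on IAA and 10.7 ± 0.37 on control medium at 12 h (-1.26 ± 0.19, adjusted p = 6e-06). These 2 calls held with any single array or replicate number left out.

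AT5G51440 averaged 7.74 ± 0.12 on IAA and 9.66 ± 0.35 on control medium at 8 h (-1.92 ± 0.64, limma adjusted p = 0.0347), and adjusted p reached 0.104 without control 8 h replicate 1, with 5 of the 6 arrays of that time, all but control replicate 3, ending the call when left out. It was 0.235 without replicate number 1 and 0.16 without number 2. NDB3 averaged 6.92 ± 0.16 on IAA and 7.84 ± 0.36 on control medium at 12 h (-0.92 ± 0.31, limma adjusted p = 0.0452), did not pass the F test (adjusted p = 0.0554), and had an adjusted p of 0.171 without control 12 h replicate 2, the highest of 9 arrays that ended the call when left out. That call was also lost with quantile normalization (adjusted p = 0.0714), with median centring (0.0646) and without replicate number 1 (0.319) or 2 (0.296). The median difference of the 4 was -1.51 at 8 h, against -0.01 for all probe sets. Their mean deviation followed that of the 9 genes over the 48 arrays with an r of 0.966. None of the 5 listed membrane-bound NAC factors, and none of the 5 other MATE genes of the cluster, could be named on the array.

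**Figure D5:**
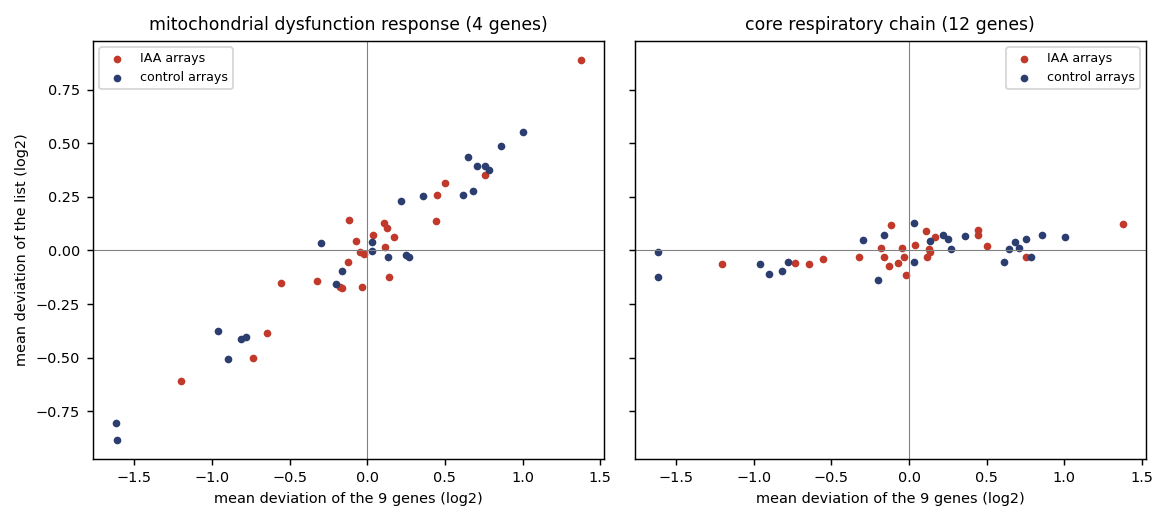
Each point is 1 array, with the mean log2 deviation of the 9 genes from their group means on the horizontal axis and that of a list on the vertical axis, for 4 other genes of the mitochondrial dysfunction response (left) and 12 genes of the core respiratory chain (right), on the same scale. The left points run along a line (r = 0.966) and the right points stay close to 0 (r = 0.558). These are values of list means. Taken singly, genes followed the mean standardized deviation of the 9 with an r from 0.65 to 0.925 (left) and from -0.317 to 0.773 (right).

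Of 24 listed genes of the core respiratory chain, 12 could be named, and their mean level per array was 10.8 to 11.3 on IAA and 10.9 to 11.3 on control medium. The median difference of the 12 lay between -0.06 and 0.08 from 0 to 12 h and was -0.18 at 24 h. The F test was passed by 2 of the 12, both subunits of succinate dehydrogenase, against 28.3% of all probe sets, and 1 of the 12 fell at each of 8, 12 and 24 h, against 6.43%, 4.93% and 3.21%. SDH2-1 averaged 11.02 ± 0.06 on IAA and 11.5 ± 0.28 on control medium at 24 h (-0.47 ± 0.12, limma adjusted p = 0.00733, and 0.114 without control 24 h replicate 3). With only the arrays compared it was 0.186, and without replicate number 2 or 3 it was 0.11 or 0.184. SDH1-2 averaged 6.06 ± 0.14 on IAA and 6.60 ± 0.29 on control medium at 12 h (-0.54 ± 0.17, limma adjusted p = 0.0312, and 0.219 without control 12 h replicate 2, with 4 arrays of that time each ending the call). It was 0.103 with quantile normalization, 0.074 with only the arrays compared, and 0.228 or 0.433 without replicate number 1 or 2. CYTC-2 at 10.1 ± 0.20 on IAA and 10.5 ± 0.09 on control medium, and AT5G11770 at 12.2 ± 0.34 and 12.5 ± 0.18, both at 24 h, did not pass (limma adjusted p = 0.304 and 0.346).

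Of 14 enzymes that remove reactive oxygen, GR1 and PRXIIF could be named, and neither passed the F test, against 28.3% of all probe sets. Over the 48 arrays, their mean deviation nevertheless followed that of the 9 genes with an r of 0.777. GR1, a glutathione reductase, averaged 11.1 ± 0.11 on IAA and 11.5 ± 0.45 on control medium at 12 h (-0.39 ± 0.26, limma adjusted p = 0.399). PRXIIF, the mitochondrial peroxiredoxin, averaged 10.9 ± 0.32 on IAA and 11.1 ± 0.15 on control medium at 24 h (-0.19 ± 0.17, limma adjusted p = 0.641).

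Of 10 general markers of oxidative stress, 6 could be named and 4 of these passed the F test, UGT73B5 among them, against 28.3% of all probe sets. The number that fell was 1 at 1, 2 and 4 h, 3 at 8 h, 4 at 12 h and 0 at 24 h, with none that rose. Of all probe sets 0.607% fell at 1 h, 3.76% at 2 h, 7.1% at 4 h, 6.43% at 8 h, 4.93% at 12 h and 3.21% at 24 h. AT1G19020 averaged 8.73 ± 0.32 on IAA and 10.9 ± 0.47 on control medium at 12 h (-2.20 ± 0.33, limma adjusted p = 7.18e-06). AT1G05340 averaged 8.00 ± 0.35 on IAA and 9.82 ± 0.57 on control medium at 12 h (-1.82 ± 0.39, limma adjusted p = 0.000986). AT4G01870 averaged 9.34 ± 0.10 on IAA and 10.7 ± 0.40 on control medium at 12 h (-1.32 ± 0.31, limma adjusted p = 0.00297). These 3 calls held with any single array left out, though AT4G01870 had an adjusted p of 0.0892 without replicate number 1. The call of UGT73B5 at 12 h (limma adjusted p = 0.0151) was lost without control 12 h replicate 2 (0.152), control replicate 1 or IAA replicate 1 of that time, with only the arrays compared (0.105) and without replicate number 1 (0.311) or 2 (0.261). AT1G26380 at 24 h, with 7.28 ± 1.00 on IAA and 8.98 ± 1.58 on control medium, did not pass (limma adjusted p = 0.203). Over the 48 arrays the mean deviation of the 6 followed that of the 9 mitochondrial stress genes with an r of 0.657.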

How the data were processed

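Total RNA of Arabidopsis roots was measured on 48 Affymetrix arrays, with 16 groups of 3. The deposited values are log2 intensities, a unit read from the values themselves, and how the authors summarised and normalized them is not given in the labels. Arrays have no read depth, and 3 arrays a group limit the precision. The 9 genes and all gene lists were chosen with earlier results of these data known.

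Of 22810 probe sets, 64 Affymetrix controls were left out and 22746 tested with no filter on low values. The probe table names exactly 1 gene for 13513 of these (59.4%), several for 503 and does not list 8730. Symbols came from the RefSeq table of TAIR10.1, and its coordinates served only for the order of genes. Where 1 gene had several probe sets, the one with the highest mean was used. A mean for each group was fitted with limma 3.58.1 (R 4.3.3; lmFit, eBayes, 32 residual degrees of freedom) to all 48 arrays, two-sided, with Benjamini-Hochberg adjustment over all probe sets and a threshold of 0.05. It was tested on simulated data first. Errors of differences are standard errors of the fit, which pools the spread of a gene over all 16 groups. They do not follow the spread of the groups compared, which was unequal for the 9 genes.

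The text names the 9 genes, GH3.3 and LBD29, up to 6 genes most alike by each of 2 measures, and up to 4 genes of each list with the largest difference at any time. The likeness is Pearson's r with the mean standardized values of the 9 genes. The lists were the mitochondrial dysfunction response, membrane-bound NAC factors, core respiratory chain, enzymes removing reactive oxygen, oxidative stress markers, hypoxia response, neighbouring MATE genes, and root and photosynthesis markers. Alternatives were quantile normalization, median centring, the replicate number as a block, a filter on low values, robust estimation with an intensity trend, single arrays or replicate numbers left out, only the arrays compared, and a fold of at least 2 in addition. IAA at 0 h as reference and leaving out the 4 farthest arrays were added after the data were seen. Another probe set could not be tried, since each gene has 1.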

Additional observations from a re-analysis of the deposited data

How the results depend on the processing

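With the replicate number as a block, the count of the 9 genes with an adjusted p under 0.05 (limma) and a lower level on IAA was 2 at 1 h, 1 at 2 h and 8 at 24 h, and the median correlation of deviations was 0.844. Same-numbered IAA and control arrays of a time deviated together (r over 0.1) in 19 of 24 pairs and not in all, and the numbers were not treated as pairs. As a hint from the data, 39 of 48 arrays correlated best with their own number. With only the arrays compared the count was 0 at 1 h and 2 at 12 h. Without the 4 farthest arrays it was 0 at 1 h, 1 at 2 h and 8 at 24 h. With IAA at 0 h as reference it was 6 at 2 h and 8 at 12 h, and the 8 h difference was -2.11 for AT1G05060 and -2.97 for AT2G04050. With a replicate number or a single array left out, the counts ran from 0 to 0 at 0.5 h, 0 to 2 at 1 h, 0 to 3 at 2 h, 0 to 7 at 4 h, 0 to 8 at 8 h, 0 to 9 at 12 h and 0 to 6 at 24 h. The lowest from 4 to 12 h came without replicate number 1 and the highest without number 3. The count past the F test ran from 2 to 9 and that of the control course from 0 to 0, and the median correlation of deviations from 0.849 to 0.893. The median difference of the 9 genes ran from -0.85 to -0.27 at 0.5 h, -2.25 to -1.005 at 1 h, -1.49 to -0.54 at 2 h, -1.81 to -1.36 at 4 h, -2.50 to -1.66 at 8 h, -2.92 to -1.39 at 12 h and -2.82 to -1.22 at 24 h. NDB4 at 24 h ran from -1.32 to -0.02. The share of all probe sets under each setting was not set beside these counts, and the cause of the changes was not tested.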

Other observations

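Hypoxia response genes, which plants switch on when oxygen is short, were listed because a blocked respiratory chain and low oxygen share some transcripts. Of 20 listed genes, 8 could be named and 4 of the 8 passed the F test of IAA against control (limma, adjusted over all probe sets), against 28.3% of all probe sets. At 24 h 3 of the 8 were higher on IAA, against 3.79% of all probe sets, and none was lower, with a median difference of 0.61 over the 8 genes, against -0.02 for all probe sets. AT1G33055 averaged 8.03 ± 0.41 on IAA and 6.75 ± 0.45 on control medium at 24 h (SD, n = 3 each), a difference of 1.29 ± 0.21 (limma adjusted p = 5.72e-05), which passed with any single array left out. AT4G33560 averaged 7.30 ± 0.99 on IAA and 6.30 ± 0.20 on control medium (1.00 ± 0.26, limma adjusted p = 0.00991), but did not pass the F test (adjusted p = 0.109). Its limma adjusted p at 24 h was 0.255 without IAA 24 h replicate 2, 0.291 with only the arrays compared and 0.0884 without the 4 farthest arrays. Without replicate number 1 or 2 it was 0.0818 or 0.351. AT3G10040 averaged 7.33 ± 0.52 on IAA and 6.53 ± 0.37 on control medium (0.79 ± 0.19, limma adjusted p = 0.00469), with an adjusted p of 0.114 without IAA 24 h replicate 2, and control 24 h replicate 3 ended that call too. It was 0.191 with only the arrays compared, 0.0706 without the 4 farthest arrays, and 0.209 or 0.0522 without replicate number 2 or 3. The mean level of the 8 genes in the 24 h arrays was 7.24, 7.96 and 7.33 on IAA and 7.02, 7.09 and 6.88 on control medium, so the second IAA array, in which all 9 mitochondrial stress genes were high, was also the highest here. PDC2, a pyruvate decarboxylase of fermentation, was lower on IAA at 4 h (8.68 ± 0.07 on IAA and 9.52 ± 0.06 on control medium, -0.84 ± 0.16, limma adjusted p = 0.000254).

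Among 4 named photosynthesis markers, 1 passed the F test, against 28.3% of all probe sets. LHCB4.1, a light-harvesting protein, averaged 7.27 ± 0.19 on IAA and 7.94 ± 0.08 on control medium at 4 h (-0.67 ± 0.20, limma adjusted p = 0.0178, and 0.105 without IAA 4 h replicate 3). Control 4 h replicate 2 ended that call too, and it was lost without replicate number 1 (limma adjusted p = 0.105) or 3 (0.12). LHCB4.2 was lower on IAA at 4 h and did not pass (-0.33, limma adjusted p = 0.255). RCA at 24 h (0.67, limma adjusted p = 0.0515) and PORB at 0.5 h (0.58, limma adjusted p = 0.0536) were higher on IAA, and neither passed.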
